A study of Mus musculus with 6 samples.

Results

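The genes described here are *Dbp*, *Tef* and *Hlf*, the PAR bZIP transcription factors, and *Nfil3*, which encodes a repressor of the same DNA sites. Their probe sets were found by gene name through the platform annotation, by a rule that uses no measured value, although earlier results of these data were known when the genes were chosen. Each of the 4 genes had 1 probe set of its own, which makes 4 of the 23410 probe sets that carry a gene symbol and were tested, out of 35557 on the array. RNA came from the dorsal skin of 3 Bmal1-/- mice and 3 Bmal1+/- littermates at postnatal day 22, with a whole-transcript Affymetrix array for each mouse, when the follicles rest (telogen). The mice carry the mutation in the whole body on a C57BL/6J background. The Bmal1+/- mice keep 1 intact copy of the gene, and no mouse with both copies intact was measured. All mice were labelled female except Bmal1+/- replicate 1, which was labelled male and for which one label gives a later day of life than the other. The sources used here do not state at which hour these 6 mice were sampled.

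PAR bZIP proteins (named for a region rich in proline and acidic residues, next to a basic leucine zipper) bind D-boxes as dimers and activate transcription there. NFIL3, also called E4BP4, has the leucine zipper but lacks the activating region, and it represses from the same sites. In the mammalian clock, CLOCK and BMAL1 activate *Dbp* through E-boxes, while *Nfil3* is under the control of RREs, the elements at which REV-ERB nuclear receptors repress and ROR receptors activate. The activators and the repressor therefore reach their peaks at opposite times of day in tissues such as liver, and together they pass the rhythm on to genes with D-boxes.

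Promoter windows of these genes, 250 bases before to 50 bases after each start in the promoter table (RefSeq, build GRCm38.p6), were searched on both strands for the E-box CACGTG, the E'-box CACGTT, the D-box (TTACGTAA or TTATGTAA) and the RRE core AGGTCA. These letters occurred in 7.15%, 4.68%, 1.06% and 16.3% of all 32851 such windows. *Tef* (chromosome 15, 81802673 to 81826863) has 2 annotated starts and held an E-box before each of them, 127 bases upstream of the first and 138 bases upstream of the other. *Nfil3* (chromosome 13, 52967209 to 52982878, minus strand) held 1 RRE core, 12 bases upstream of the only start in the table and on the opposite strand, so that the capitals below read as its complement. That start, at 52981039, lies inside the span of the gene, and sequence before the outer end of the span was not searched. The windows of *Dbp* (gene at chromosome 7, 45705100 to 45710203) and *Hlf* (gene at chromosome 11, 90336535 to 90390917, minus strand) held none of the 4 motifs. No window of the 4 genes held a D-box. For RREs only the core letters were searched, so a match is not shown to be a full RRE. Introns and more distant sequence were not searched. The stretches that carry the matches are shown 5′ to 3′ on the strand of the gene, with the motif in capitals.
Tef, first start, chr15:81802520-81802577: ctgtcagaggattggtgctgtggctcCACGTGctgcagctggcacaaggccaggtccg
Tef, other start, chr15:81811250-81811307: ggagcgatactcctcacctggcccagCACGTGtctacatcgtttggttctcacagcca
Nfil3, chr13:52981040-52981077: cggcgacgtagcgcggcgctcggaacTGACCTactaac

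D-boxes themselves, the sites that the 4 proteins bind, were found in 1 gene of the D-box clock genes described further on and in 1 gene of the PAR bZIP output list. *Per3*, of the period family, held 2, at 205 and 158 bases upstream of its start. *Alb*, the albumin gene, also held 2, at 223 and 204 bases upstream. DBP (D site of albumin promoter binding protein) is named for a site in this promoter. Whether either match is that site was not checked, and only these exact letters were searched. The matches are shown so that the response of each gene can be read beside them, although *Alb* was dim in this skin. The D-box is in capitals on the strand of the gene. In the *Alb* stretch the second match, in reverse, stands in lower case.
Per3, farther site, chr4:151044837-151044896: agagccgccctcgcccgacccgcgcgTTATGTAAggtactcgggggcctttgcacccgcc
Per3, nearer site, chr4:151044790-151044849: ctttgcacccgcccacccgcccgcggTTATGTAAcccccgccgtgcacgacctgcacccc
Alb, chr5:90460621-90460680: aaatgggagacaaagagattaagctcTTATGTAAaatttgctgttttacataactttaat

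**Figure D1:**
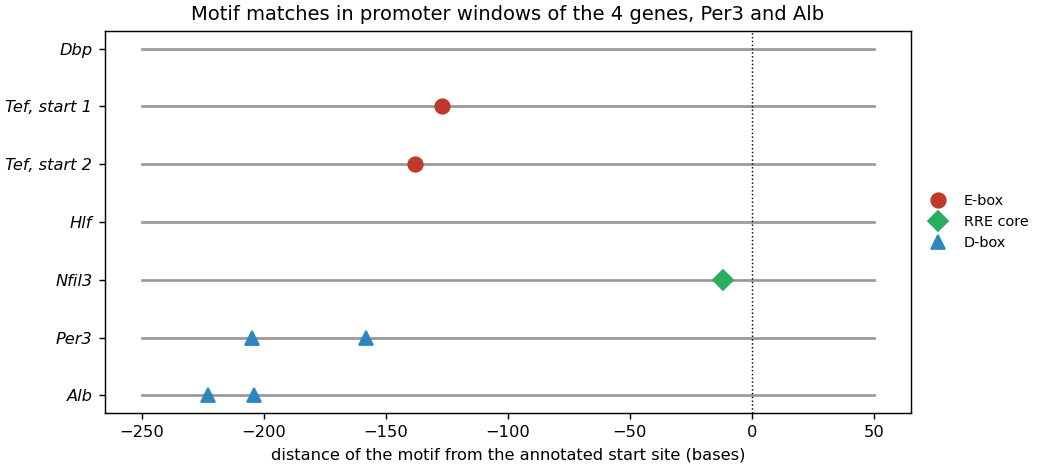
Positions of motif matches (symbols) in the promoter windows (lines) of *Dbp*, *Tef*, *Hlf*, *Nfil3*, *Per3* and *Alb*, with the distance from the annotated start site in bases on the horizontal axis. *Tef* has an E-box at both starts, *Nfil3* has an RRE core close to its start, and the windows of *Dbp* and *Hlf* are empty.

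The 3 activators fell and the repressor rose in Bmal1-/- skin. All 4 passed limma's adjusted p under 0.05, as did 0.231% of tested probe sets, 0.132% in the lower and 0.0982% in the higher direction. The 2 genotypes did not overlap for any of the 4 genes, which was also so for 7.68% of tested probe sets in the lower and 6.99% in the higher direction. Values are probe set intensities on the linear scale that the authors deposited, and log2 fold changes are Bmal1-/- minus Bmal1+/- of log2(intensity + 16). The offset understates the change of dim genes, and more so the dimmer they are. In whole skin, fewer cells of a type that expresses a gene and less RNA of it per cell cannot be told apart.

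*Dbp*, the activator with the widest daily swing in many tissues, had the largest change of the 4. Its intensity (probe set 10553092) was 209.9, 221 and 221 in the 3 Bmal1-/- mice, against 1378, 1536 and 1148 in the 3 Bmal1+/- mice. The Bmal1-/- mice were nearly equal to each other, with a coefficient of variation of 2.88%, against 14.4% among Bmal1+/- mice. Mean intensity in Bmal1-/- skin was 16.0% of that in Bmal1+/- skin, and the log2 fold change was −2.55 (SE 0.10, adjusted p = 6.2e-06 from limma). Among all tested probe sets, *Dbp* ranked number 6 from the lowest log2 fold change.

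*Tef*, thyrotroph embryonic factor, was first known as an activator in the pituitary and is expressed in many tissues. Its intensity (probe set 10425601) was 649, 661 and 731 in Bmal1-/- mice, against 1336, 1416 and 1280.5 in Bmal1+/- mice. Both groups were tight and far apart, with coefficients of variation of 6.52% in Bmal1-/- and 5.08% in Bmal1+/- mice. Bmal1-/- skin kept 50.6% of the Bmal1+/- level, and the log2 fold change was −0.97 (SE 0.07, adjusted p = 0.00031 from limma), number 29 from the lowest.

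*Hlf*, hepatic leukemia factor, is the third activator and is also known from blood stem cells and from a fusion oncogene in leukemia. Its intensity (probe set 10389786) was 481, 503 and 556 in Bmal1-/- mice, against 763, 867 and 762 in Bmal1+/- mice. The genotypes did not overlap, though the gap between the highest Bmal1-/- and the lowest Bmal1+/- mouse was narrower than for *Dbp* and *Tef*. Bmal1-/- skin kept 64.4% of the Bmal1+/- level, and limma gave −0.62 on the log2 scale (SE 0.08, adjusted p = 0.014). This call rested on single mice: without Bmal1-/- replicate 1, Bmal1+/- replicate 2 or Bmal1+/- replicate 3 the adjusted p was 0.057, 0.057 and 0.055, and it was 0.065 with all probe sets of the table and 0.071 without the intensity trend in the variance.

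*Nfil3*, the repressor, also has a known part in the development of natural killer and other innate lymphoid cells. Its intensity (probe set 10409278) was 669, 479 and 644 in Bmal1-/- mice, against 259.8, 271 and 221 in Bmal1+/- mice. The lowest Bmal1-/- mouse, replicate 2, was still well above every Bmal1+/- mouse. Mean intensity in Bmal1-/- skin was 2.38 times that in Bmal1+/- skin, and the log2 fold change was 1.19 (SE 0.13, adjusted p = 0.0053 from limma), number 6 from the highest. *Nfil3* had the widest spread of the 4 genes within Bmal1-/- skin, with a coefficient of variation of 17.3%, against 10.6% in Bmal1+/- skin.

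**Figure D2:**
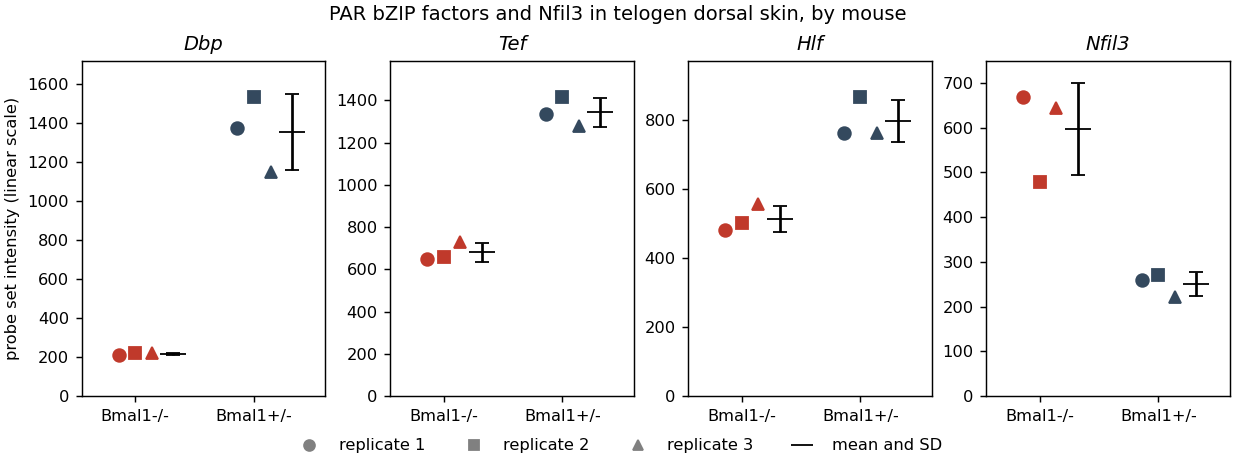
Levels of *Dbp*, *Tef*, *Hlf* and *Nfil3* (vertical axes, intensity on a linear scale from 0) in each Bmal1-/- and Bmal1+/- mouse (symbols by replicate number). Lines and bars are means and SDs (n = 3). The genotypes do not overlap for any of the 4 genes, with no Bmal1-/- mouse above 221 for *Dbp* or below 479 for *Nfil3*.

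The order of the mice within a genotype was alike for some of the genes. Among the Bmal1+/- mice, replicate 2 had the highest and replicate 3 the lowest value of all 4 genes, the repressor included. Among the Bmal1-/- mice, replicate 3 was the highest for *Dbp*, *Tef* and *Hlf*, by less than 1 intensity unit for *Dbp*, and replicate 1 was the highest for *Nfil3*. With 3 mice of each genotype no correlation within a genotype could be tested.

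The sizes of the changes were compared between genes by taking, in each mouse, the difference of 2 genes' log2 values, and by comparing that difference between genotypes (6 pairs of genes). The change of *Dbp* minus that of *Tef* was −1.58 on the log2 scale, with an SD of 0.07 among Bmal1-/- mice and 0.14 among Bmal1+/- mice, and minus that of *Hlf* it was −1.93 (SD 0.08 among Bmal1-/- and 0.14 among Bmal1+/- mice). The change of *Tef* minus that of *Hlf* was −0.35, more than the spread between mice (SD 0.02 among Bmal1-/- and 0.05 among Bmal1+/- mice). Minus the change of the repressor, the values were −3.74 for *Dbp*, −2.16 for *Tef* and −1.81 for *Hlf*. For all 6 pairs the genotypes did not overlap, and each had p = 0.1 in a two-sided exact permutation test (adjusted p = 0.1 over the 6 pairs), which is the smallest p that 3 mice against 3 can give. So the order of the responses, *Dbp* below *Tef* below *Hlf* below *Nfil3*, held beyond the spread between mice but could not pass the threshold.

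Leaving out each mouse in turn moved the log2 fold change between −2.66 and −2.45 for *Dbp*, between −1.02 and −0.93 for *Tef*, between −0.68 and −0.56 for *Hlf* and between 1.10 and 1.34 for *Nfil3*. *Dbp*, *Tef* and *Nfil3* passed the threshold in each of these 6 fits. Without the male mouse, Bmal1+/- replicate 1, the log2 fold changes were −2.53, −0.97, −0.65 and 1.22, in the order *Dbp*, *Tef*, *Hlf*, *Nfil3*.

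**Figure D3:**
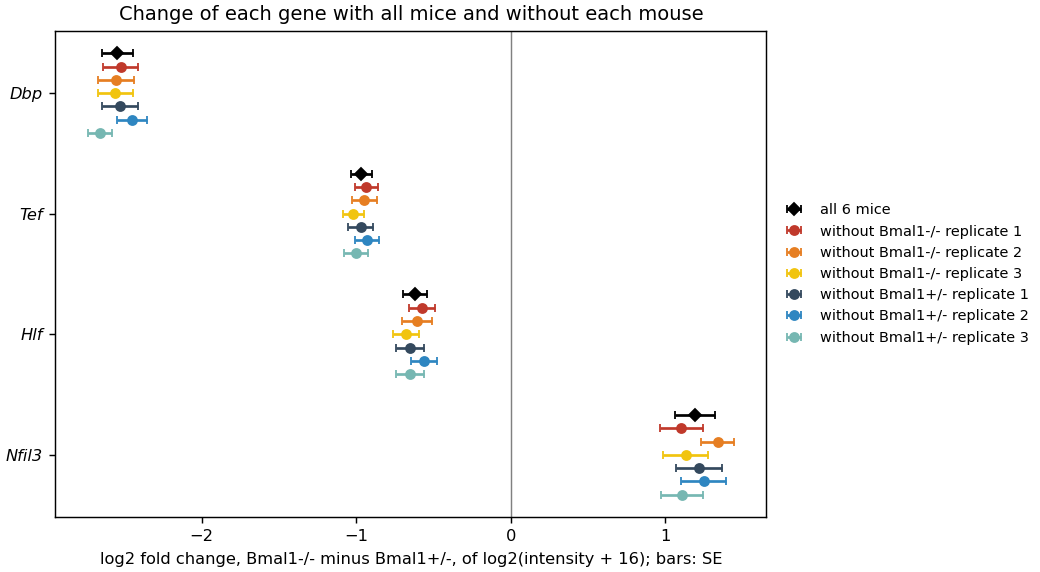
Log2 fold change (horizontal axis, Bmal1-/- minus Bmal1+/-, bars: SE) of the 4 genes with all 6 mice (diamonds) and without each mouse in turn (circles). *Dbp* stays at or below −2.45 and *Nfil3* at or above 1.10 in each fit.

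Other bZIP families, which share the basic leucine zipper but bind mainly other sites, did not pass the test. Of 6 genes of the C/EBP family, whose proteins can bind sites related to the D-box, none passed limma's adjusted p under 0.05 and 1 had an unadjusted p under 0.05. Their median log2 fold change was −0.07, and *Cebpe* and *Ddit3* had the largest changes, at −0.21 and −0.16 (adjusted p = 0.76 and 0.69 from limma). Both depended on single mice: *Cebpe* was at −0.04 without Bmal1-/- replicate 1 and −0.35 without Bmal1+/- replicate 1, and *Ddit3* at −0.27 without Bmal1-/- replicate 3 and −0.10 without Bmal1-/- replicate 2. Of 42 genes of the AP-1, CREB/ATF, MAF, NFE2 and BACH families and *Xbp1*, none passed and 3 had an unadjusted p under 0.05, with a median log2 fold change of 0.01. The immediate early gene *Fosb* was at 319, 187 and 191 in Bmal1-/- mice, against 317, 343 and 279.7 in Bmal1+/- mice, and Bmal1-/- replicate 1 lay within the range of the Bmal1+/- mice. Its log2 fold change was −0.44 (adjusted p = 0.51 from limma), and −0.68 without Bmal1-/- replicate 1 (adjusted p = 0.070), and that of *Fos* was −0.32 (adjusted p = 0.39). Over all 48 genes of the 2 lists, 4 had an unadjusted p under 0.05, beside 8.77% of all tested probe sets, and a Cyber-T type test, the regularised kind that the study used, called none of them. The median over all tested probe sets was 0.01.

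Of the clock factors that act upstream of the 4 genes, 14 of 16 listed genes had a probe set of their own. Limma called 4 of them lower and 3 higher in Bmal1-/- skin, beside 0.132% and 0.0982% of all tested probe sets. The median log2 fold change of the 14 genes was −0.33. Those called higher were *Cry1*, *Arntl* and *Clock*, at log2 fold changes of 1.15, 0.79 and 0.54 (limma's adjusted p = 2.6e-05, 0.0037 and 0.018). The REV-ERB genes *Nr1d2* and *Nr1d1*, whose products repress through RREs such as those of *Nfil3*, fell (log2 fold changes −3.27 and −3.11, with limma's adjusted p = 6.2e-06 and 2.0e-05). *Rora*, the activator at the same elements, was at −0.19 (adjusted p = 0.40). The repressors *Ciart* and *Per3* also fell (log2 fold changes −2.49 and −2.18). Transcripts of *Arntl*, the gene that encodes BMAL1, were at 569, 609.8 and 664 in Bmal1-/- mice, against 325, 365 and 355 in Bmal1+/- mice. Whether its probes lie inside the deletion is unknown here, and the level is therefore no check of genotype.

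D-box clock genes, the part of the clock on which the 4 factors are known to act, were lower as far as they passed. Of 7 such genes, 3 fell (*Nr1d2*, *Nr1d1* and *Per3*), none rose and 4 did not pass, with a median log2 fold change of −0.93. Over all tested probe sets limma called 0.132% lower. By limma 6 of the 7 genes had an unadjusted p under 0.05, beside 8.77% of all tested probe sets. The 7 overlap with the upstream factors, and several of them are also known to carry E-boxes, so that effects through either site cannot be told apart. *Per3*, the only one of the 6 with a window in the promoter table that held a D-box, was at 146, 133 and 172 in Bmal1-/- mice, against 710.3, 804 and 693 in Bmal1+/- mice. *Per1* was at 846, 275 and 365 in Bmal1-/- mice, against 993, 937 and 665 in Bmal1+/- mice, with Bmal1-/- replicate 1 inside the range of the Bmal1+/- mice (log2 fold change −0.93, adjusted p = 0.46 from limma). Without Bmal1-/- replicate 1 the log2 fold change was −1.38 and limma called *Per1* lower (adjusted p = 0.028), which made 4 of the 7 genes, and the Cyber-T type test called it with all mice. This is the same mouse that lay high for *Fosb*. *Per2* and *Rora* were lower without overlap between genotypes, at log2 fold changes of −0.39 and −0.19, and neither passed (adjusted p = 0.26 and 0.40). With these, 5 of the 7 genes were lower without overlap, beside 7.68% of all tested probe sets.

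Genes outside the clock that are known as PAR bZIP targets, mostly from liver, mostly did not pass the test. Of 16 listed genes 13 had a probe set of their own, 1 fell and none rose, with a median log2 fold change of 0.00. The gene that fell was *Cyp2b10*, a cytochrome P450 of xenobiotic metabolism, at 471, 596 and 626 in Bmal1-/- mice, against 954, 888 and 962 in Bmal1+/- mice. The log2 fold change was −0.72 (SE 0.10, adjusted p = 0.023 from limma). This call was lost without each of the 3 Bmal1+/- mice, at adjusted p of 0.11, 0.062 and 0.11 in the order of their replicate numbers, as well as under 3 of the other settings, at adjusted p of up to 0.11. Relatives that could share its probes were named only after these values were seen. *Cyp2b9* had a log2 fold change of −0.40 and *Cyp2b13* of 0.20 (adjusted p = 0.34 and 0.71 from limma). *Cyp2b19* was at 0.23 and *Cyp2b23* at 0.05 (adjusted p = 0.47 and 0.94), and cross-hybridisation among these genes was not tested.

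*Pdxk*, pyridoxal kinase, which is reduced in brain and liver of mice without the 3 PAR bZIP factors, was at 748, 723 and 699 in Bmal1-/- mice, against 805, 850.4 and 886 in Bmal1+/- mice. The genotypes did not overlap, but the log2 fold change was only −0.22 and did not pass (adjusted p = 0.32 from limma). *Pdxk* is named outside the rule for the text, after its values were seen. *Alb*, which has 2 D-boxes in its window, was at 75.4, 109.8 and 117 in Bmal1-/- mice, against 119, 147 and 98.0 in Bmal1+/- mice, and the genotypes overlapped (log2 fold change −0.24, adjusted p = 0.73). Its values lay under the median intensity of every array (219 to 235.5), so *Alb* was dim in this skin. *Alb* too is named for its sites and not by its change. Several genes of this list, among them *Cyp3a11*, *Cyp4a14* and *Cyp7a1*, had mean intensities under 50 in both genotypes, where the offset understates a change the most. For *Cyp4a14* the ratio of mean intensities was 1.22, against a fold of 1.14 with the offset.

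No gene linked to NFIL3 passed the test. The 7 listed genes were *Eomes*, *Id2* and *Tox* in innate lymphoid cells, the cytokines *Il10*, *Il12b* and *Il13*, and *Fgf21*. None was called by limma or by the Cyber-T type test. By limma 2 had an unadjusted p under 0.05, beside 8.77% of all tested probe sets. *Eomes*, *Il10* and *Il12b* were dim, with genotype means between 54.6 and 80.3. All 7 had log2 fold changes above 0, between 0.03 and 0.27, with a median of 0.22, against 0.01 over all tested probe sets. The list was not split by whether NFIL3 raises or lowers a gene, and the part of NFIL3 in this common direction was not tested. *Id2*, an inhibitor of basic helix-loop-helix factors, had the largest with all mice, at 0.27 (adjusted p = 0.60 from limma), but was at 0.43 without Bmal1-/- replicate 1 and 0.15 without Bmal1-/- replicate 2. Its values of 1142, 1685 and 1508 in Bmal1-/- mice overlapped with 1144, 1085 and 1322 in Bmal1+/- mice. *Fgf21*, a hormone that NFIL3 is known to repress in liver, was at 258, 311 and 287 in Bmal1-/- mice, against 219.8, 222 and 275 in Bmal1+/- mice (log2 fold change 0.24, adjusted p = 0.56). Markers of natural killer and innate lymphoid cells, a population that needs *Nfil3*, were dim. Their summed intensity over 8 genes was 649.6 to 743 in Bmal1-/- and 628 to 729 in Bmal1+/- mice, none passed limma or the Cyber-T type test, and none had an unadjusted p under 0.05. The 2 with the largest changes were *Tbx21*, at 0.25 (adjusted p = 0.58), and *Klrb1c*, at 0.18 (adjusted p = 0.87).

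**Figure D4:**
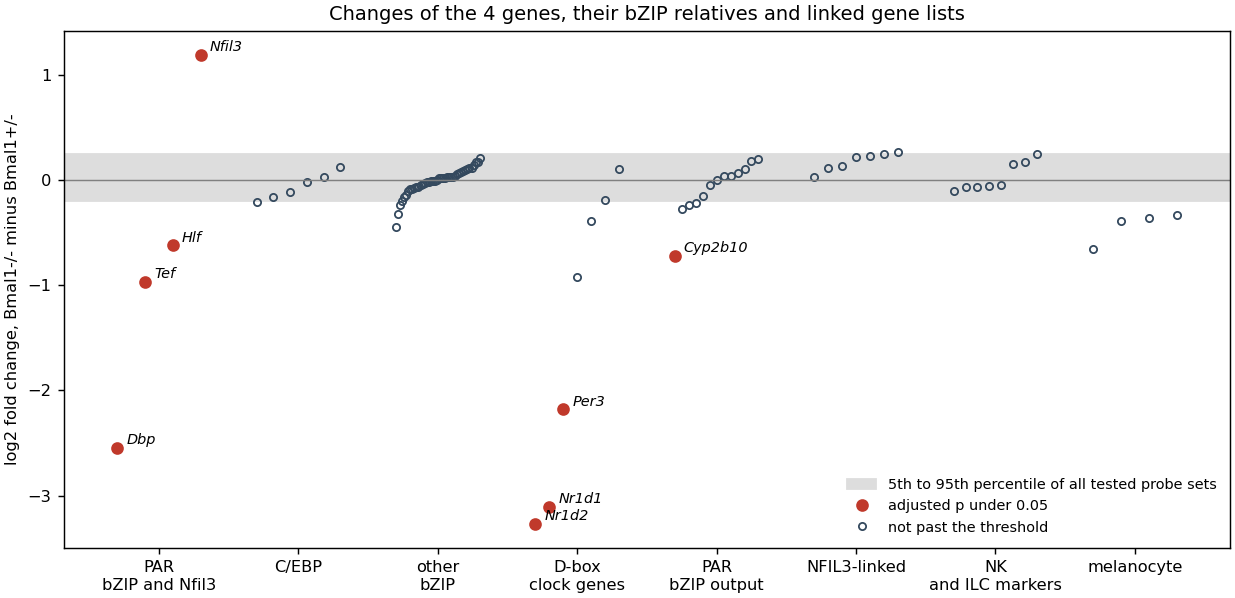
Log2 fold change (vertical axis, Bmal1-/- minus Bmal1+/-) of the 4 genes, their bZIP relatives, D-box clock genes, PAR bZIP output genes, NFIL3-linked genes and markers of natural killer and innate lymphoid cells and of melanocytes, 1 point per gene, filled where limma's adjusted p was under 0.05. The grey band holds the middle of all tested probe sets, from −0.20 to 0.25, and of the other bZIP genes *Fosb*, at −0.44, lies farthest below it.

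Genes whose level over the 6 mice was most like that of each factor were found by the root mean square difference of log2(intensity + 16), each gene taken relative to its own Bmal1+/- mean. The nearest to *Dbp* was *Ciart*, a difference of 0.17, followed by *Per3* (0.29) and *Tcap* (0.36), a gene of the sarcomere. *Ciart* was at 87.5, 81.3 and 69.3 in Bmal1-/- mice, against 619.9, 588 and 378 in Bmal1+/- mice, so that replicate 3 was the lowest Bmal1+/- mouse for both genes, while the highest was replicate 1 for *Ciart* and replicate 2 for *Dbp*. The nearest to *Tef* were *Slc7a2*, an amino acid transporter (0.17), *Serpinb1c*, of a protease inhibitor family (0.17), and *Nrep* (0.20). For *Hlf* they were *Dusp10*, a phosphatase of MAP kinases (0.06), *Podn*, a proteoglycan of the extracellular matrix (0.08), and *Socs2*, an inhibitor of cytokine signalling (0.09). *Socs2* itself did not pass the threshold (adjusted p = 0.115 from limma). *Dusp10* was at 361, 335 and 389 in Bmal1-/- mice, against 521, 637 and 523 in Bmal1+/- mice, with Bmal1+/- replicate 2 the highest as for *Hlf*.

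The nearest to *Nfil3* were *Tshr*, the thyrotropin receptor (0.14), *Cry1*, a clock repressor that also carries RREs (0.14), and *Ppp1r27* (0.25). *Ppp1r27* itself did not pass the threshold (adjusted p = 0.121 from limma). *Tshr* was at 504, 431 and 535 in Bmal1-/- mice, against 234, 255 and 211 in Bmal1+/- mice, and in both genes replicate 2 was the lowest of the Bmal1-/- mice and replicate 3 the lowest of the Bmal1+/- mice, while the highest Bmal1-/- mouse was replicate 3 for *Tshr* and replicate 1 for *Nfil3*. Only *Dbp* and *Nfil3* had a clock gene among their 3 nearest. These are descriptions over 6 mice of 2 genotypes, and the difference between genotypes makes up most of each pattern.

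**Figure D5:**
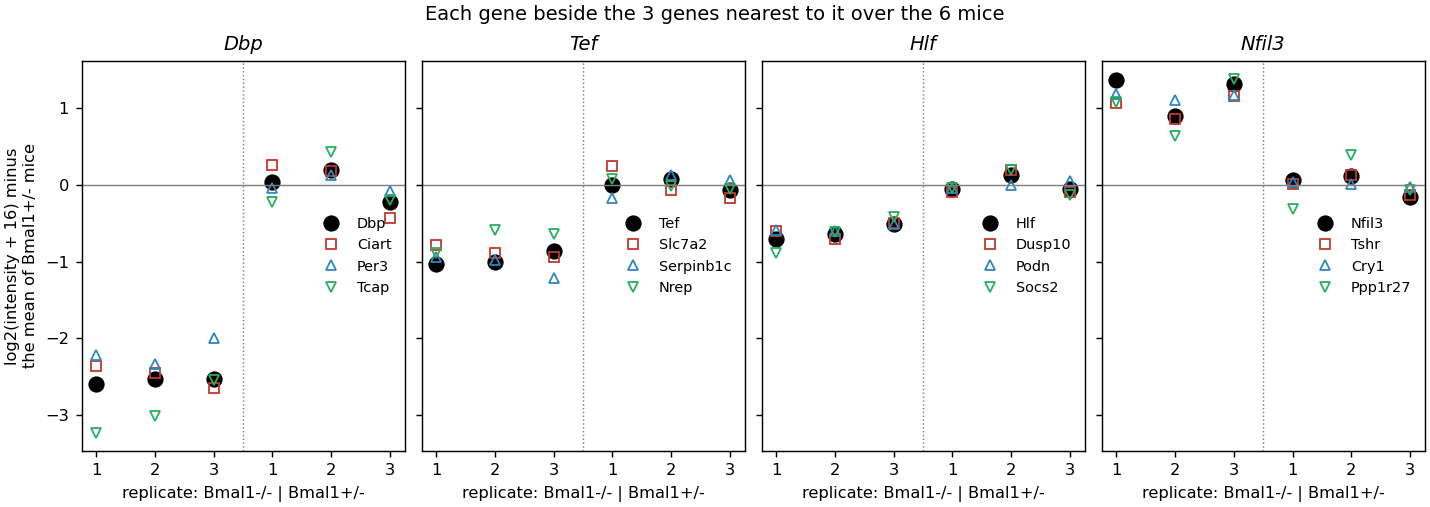
Log2(intensity + 16) relative to the mean of Bmal1+/- mice (vertical axis) in the 3 Bmal1-/- and 3 Bmal1+/- mice (horizontal axis, by replicate number) for each of the 4 genes (filled circles) and the 3 genes nearest to it (open symbols). Each gene and its neighbours lie on the same side of the Bmal1+/- mean in Bmal1-/- mice, while the order of the mice within a genotype differs between genes.

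The tissue label was checked against 39 markers in 8 lists of skin cell types, of which none passed limma's adjusted p under 0.05. By limma 8 of the 39 had an unadjusted p under 0.05, a larger share than the 8.77% of all tested probe sets, with all 4 melanocyte markers among them. Keratinocyte markers summed to 40829 to 45773 in Bmal1-/- and 43080 to 47739 in Bmal1+/- mice, and fibroblast markers to 51734 to 57835 in Bmal1-/- and 56631 to 63090 in Bmal1+/- mice. Striated muscle markers, from the muscle layer under the skin, summed to 53830 to 60745 in Bmal1-/- and 51045 to 66124 in Bmal1+/- mice, with a median log2 fold change of 0.00. The medians were −0.09 for keratinocyte, −0.14 for fibroblast, 0.08 for adipocyte, −0.10 for immune, 0.07 for endothelial and −0.20 for telogen follicle stem cell markers. *Lor* was higher without overlap, at 0.17 (adjusted p = 0.45 from limma), as were 6.99% of all tested probe sets, while *Krt5*, *Krt14*, *Krt1* and *Krt10* were below 0. *Vim* was lower without overlap, at −0.16 (adjusted p = 0.43). Of the other fibroblast markers, *Pdgfra* was at 0.00 and the rest were below 0 with overlap. *Lep* had the largest change of the 39, at −0.87 (adjusted p = 0.69 from limma), while *Adipoq*, *Plin1* and *Fabp4* were above 0. *Lep* was at 86.3, 467 and 689 in Bmal1-/- mice, against 675, 584 and 493 in Bmal1+/- mice. Among the stem cell markers *Cd34* was lower without overlap, at −0.26 (adjusted p = 0.24), and *Sox9* was at 0.12. None of the 4 melanocyte markers passed limma (adjusted p = 0.12 to 0.46), but all 4 were lower in each Bmal1-/- mouse than in each Bmal1+/- mouse, as were 7.68% of all tested probe sets, with a median log2 fold change of −0.37 and a summed intensity of 919 to 1101 in Bmal1-/- and 1331 to 1766 in Bmal1+/- mice. *Tyr* was the dimmest marker of the 8 lists, averaging 60.0 in Bmal1-/- and 82.0 in Bmal1+/- mice, and no marker was at 0. The Cyber-T type test called *Dct* and *Tyrp1* of these. Their part in the change of *Dbp*, *Tef*, *Hlf* or *Nfil3* was not tested.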

How the data were processed

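Skin RNA of 3 Bmal1-/- and 3 Bmal1+/- mice was hybridised to 6 arrays. The intensity that the authors deposited for each probe set is linear, and the submitters' processing notes name PLIER 2.0 and Affymetrix Expression Console 1.1. How background and differences between arrays were handled, and which filters and build were used, is not stated in the sources used here. Median intensity was 219 to 235.5 per array and 2.58% to 3.34% of values lay under 16. The number of arrays limits the precision. Groups, replicate numbers and sexes came from the sample labels.

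From the deposited intensities, log2(intensity + 16) was computed with no further normalization. All 23410 probe sets with a symbol were fitted with limma 3.58.1 in R 4.3.3 (lmFit, eBayes with an intensity trend), two-sided, with Benjamini-Hochberg adjustment over all of them and a threshold of 0.05. A gene with several probe sets was represented by the brightest. The study's own test, Cyber-T, was approximated by a regularised test (window of 101 probe sets, prior weight of 10) as an alternative. On simulated arrays limma kept false calls under the threshold, while the Cyber-T type test made more false calls than the threshold allows. The simulation took the observed spread of each probe set, from few mice, as its true spread. It can therefore not decide how many of the Cyber-T type calls in the real data are false. By plan limma was the main test, and the larger counts of the Cyber-T type test are given only as an alternative. The other alternatives changed the offset (1 or 64), normalization, filter, rows, variance model, sex term or replicate block, or left out 1 mouse.

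The 4 genes, the lists and the tests were chosen with earlier results of these data known. Genes named in the text were the 4 members, from each list up to 4 called genes or else the 2 with the largest change, the 3 nearest to each member, and *Arntl*. *Clock*, *Per1*, *Per2*, *Rora*, *Pdxk*, *Alb*, the relatives of *Cyp2b10* and the single cell type markers were named after their values were seen. Promoters and gene positions came from RefSeq tables (GRCm38.p6), and probe genes from the platform annotation, in which 21789 probe sets have 1 gene, 1621 several and 12147 none. Listed genes with no probe set naming them alone, among them *Npas2*, *Por*, *Cyp2a4*, *Cyp2a5*, *Flg* and *Cfd*, were not analysed here. A planned alignment of the 4 proteins was not made here. Promoters were searched with Python 3.11.15, permutation tests used scipy 1.17.1, and plots were made in matplotlib 3.10.9.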

Additional observations from a re-analysis of the deposited data

How the results depend on the processing

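The calls of *Dbp*, *Tef* and *Nfil3* held under all 18 other settings tried, with log2 fold changes of −2.66 to −2.33, −1.02 to −0.92 and 1.06 to 1.34. *Hlf* kept its direction in all of them (−0.68 to −0.56) and missed the threshold in 5: with all probe sets of the table (−0.62, adjusted p = 0.065 from limma), without the variance trend (−0.62, adjusted p = 0.071) and without Bmal1-/- replicate 1, Bmal1+/- replicate 2 or Bmal1+/- replicate 3. Over the fits without 1 mouse *Hlf* ranged from −0.68 to −0.56, with adjusted p of 0.022 to 0.057. Probe sets called lower numbered 31 and those called higher 23. The counts were 19 and 15 with all probe sets of the table, 16 and 11 without the trend, 177 and 96 with the Cyber-T type test, and 22 to 34 and 13 to 23 without 1 mouse. The higher count was 15, 13 and 15 without Bmal1-/- replicate 1, Bmal1-/- replicate 3 and Bmal1+/- replicate 2. The count of PAR bZIP output genes that fell, 1, was 0 with all probe sets of the table, without the trend, with sex as a covariate and without any 1 of the Bmal1+/- mice (0 to 1 over the fits without 1 mouse). With an offset of 64, *Dbp* differed from *Tef*, *Hlf* and *Nfil3* by −1.41, −1.75 and −3.39, and 1 of the 3 genes nearest to *Tef* stayed the same, against 2 for *Dbp*, 3 for *Hlf* and 2 for *Nfil3*. *Klrb1c* ranged from −0.022, without Bmal1+/- replicate 2, to 0.45 over the fits without 1 mouse. Apart from the settings that change the rows or samples by construction, the cause was not tested.

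Replicate numbers are not known to pair the mice. Deviations of same-numbered mice from their genotype mean correlated at 0.08, −0.35 and 0.06 over probe sets, and fitting the number as a replicate block gave 34 lower and 20 higher probe sets and kept all 4 calls, with an adjusted p of 0.042 for *Hlf*.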
